A study of Mus musculus with 12 samples.

Results

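The genes described here are 6 enzymes of cholesterol synthesis, Hmgcs1, Idi1, Fdps, Sqle, Lss and Cyp51, and Insig1, a sensor that controls the same pathway. They were taken by gene symbol from the liver expression tables, and all 7 were found among the 16821 genes listed. All 7 also passed the filter on low values, which kept the 10241 genes with 1 FPKM or more in 6 or more mice. FPKM scales the fragments of a gene to its transcript length and to the mapped fragments of the library, so it can be compared between genes of different length. No gene for the uptake of low-density lipoprotein is among the 7.

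Livers came from male C57BL/6J mice, bought at 8 weeks of age and given 1 week to adapt before grouping. The 6 Exe mice were trained by moderate treadmill running, 60 min on each of 5 days a week over 6 weeks. The 6 Con mice were sedentary in the same room, and both groups had free access to food and water. Saline was perfused before the livers were excised, at most 24 h after the last run, and handling took place in the dark phase. Each mouse gave 1 library, and no further treatment or genetic change is named.

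Cells build cholesterol from acetyl-CoA through mevalonate, isoprenoid diphosphates, squalene and lanosterol. The genes of this route are switched on together by SREBP2, the product of Srebf2, a transcription factor held in the membrane of the endoplasmic reticulum. When sterols are plentiful, the Insig proteins keep the escort protein SCAP and its SREBP cargo in that membrane. When sterols run low, SREBP2 is cut free and enters the nucleus. The liver makes much of the cholesterol of the body, and its synthesis follows feeding and the time of day.

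Of the 7 members, 5 have a promoter in the RefSeq table used here (GRCm38.p6), all but Fdps and Sqle. Up to 250 bases before the annotated gene are shown, because the members varied together between mice. Capitals mark matches to an SRE-like motif (TCACCNCA, a part of the sterol regulatory element bound by SREBP) and to the CCAAT box, on either strand, so that a CCAAT box on the opposite strand reads ATTGG. The stretches are chr13:119690101-119690350 (plus strand) for Hmgcs1, chr13:8885356-8885605 (plus) for Idi1, chr10:76531355-76531564 (plus) for Lss, chr5:4104698-4104947 (minus) for Cyp51 and chr5:28071162-28071411 (plus) for Insig1.
Hmgcs1: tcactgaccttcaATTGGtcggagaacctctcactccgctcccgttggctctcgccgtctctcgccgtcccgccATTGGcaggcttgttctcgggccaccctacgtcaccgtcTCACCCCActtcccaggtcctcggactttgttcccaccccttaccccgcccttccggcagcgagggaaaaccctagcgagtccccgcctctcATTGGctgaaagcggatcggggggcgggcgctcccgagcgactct
Idi1: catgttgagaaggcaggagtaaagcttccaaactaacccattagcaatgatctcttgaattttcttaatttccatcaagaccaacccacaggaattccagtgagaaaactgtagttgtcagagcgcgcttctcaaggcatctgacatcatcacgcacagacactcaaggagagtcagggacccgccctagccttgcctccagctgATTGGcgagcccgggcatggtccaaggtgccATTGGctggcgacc
Lss: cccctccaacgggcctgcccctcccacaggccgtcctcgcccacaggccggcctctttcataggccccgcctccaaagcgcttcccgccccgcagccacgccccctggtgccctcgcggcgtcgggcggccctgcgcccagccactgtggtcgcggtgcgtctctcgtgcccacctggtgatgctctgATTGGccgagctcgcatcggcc
Cyp51: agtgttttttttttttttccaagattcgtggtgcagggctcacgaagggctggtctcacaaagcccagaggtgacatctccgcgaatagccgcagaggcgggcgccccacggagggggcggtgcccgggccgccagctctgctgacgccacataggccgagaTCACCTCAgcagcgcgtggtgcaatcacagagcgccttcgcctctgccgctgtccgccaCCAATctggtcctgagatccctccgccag
Insig1: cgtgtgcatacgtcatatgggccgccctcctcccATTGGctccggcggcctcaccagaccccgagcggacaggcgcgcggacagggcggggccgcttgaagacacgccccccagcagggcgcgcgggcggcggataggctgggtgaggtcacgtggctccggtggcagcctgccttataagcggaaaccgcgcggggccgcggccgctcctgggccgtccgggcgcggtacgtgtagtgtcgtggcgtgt

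A CCAAT box, the site of NF-Y, was found in 5 of these 5 promoters, and 33.9% of the 32841 promoters of the table hold one within the same 250 bases. The GC box GGGCGG, a site of Sp1, was also found in 5 of 5, against 32.7% of all promoters. The SRE-like motif was found in Hmgcs1 and Cyp51, and in 3.61% of all promoters. The E-box CACGTG was found in Insig1 alone among the 5, and in 6.02% of all promoters. The motifs were chosen with these promoters known, no match in these 5 promoters overlapped another, and a match is a run of letters, not a measured binding site.

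The 7 members were well expressed in both groups. Fdps had the highest mean level over the 12 mice, 303.1 ± 78.3 FPKM (SD, n = 12), and was above Insig1 in 12 of 12 mice. Insig1 followed at 161.9 ± 51.2 FPKM, Hmgcs1 at 152.5 ± 63.6 FPKM and Idi1 at 130.3 ± 39.9 FPKM. Neither pair of neighbours differed beyond its spread, since Insig1 was above Hmgcs1 in 6 of 12 mice and Hmgcs1 above Idi1 in 7 of 12 (exact sign-flip permutation test of the log2 ratio, two-sided, p = 0.428 and p = 0.117). Cyp51 stood at 56.4 ± 12.98 FPKM, below Idi1 in 12 of 12 mice, and Sqle at 49.2 ± 14.6 FPKM. Cyp51 was above Sqle in 9 of 12 mice (exact sign-flip permutation p = 0.019). The neighbours tested were set by the means of these same mice, and the sign-flip p-values were not adjusted. Lss was lowest, at 15.2 ± 4.32 FPKM, and its range did not reach that of Sqle. The sum of the members ran from 569.3 to 1009 FPKM in the Con group and from 673.3 to 1279 FPKM in the Exe group.

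**Figure D1:**
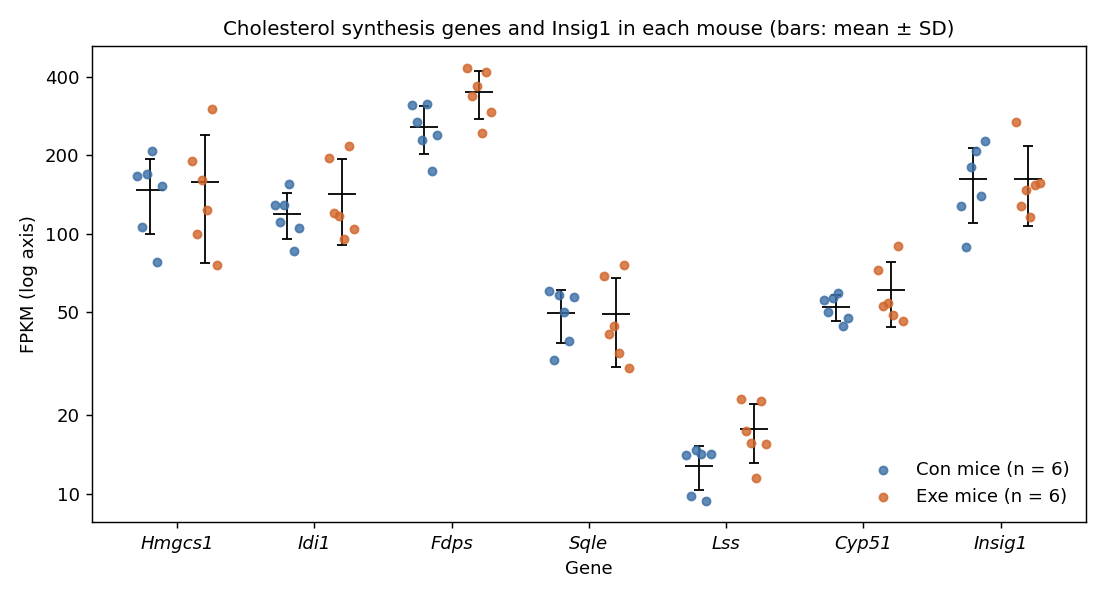
Each point is the FPKM of 1 gene in 1 mouse, on a log axis, for 6 Con and 6 Exe mice, and the black bars give the mean and SD. The groups overlapped for all 7 genes, and Lss and Fdps had 5 and 4 Exe mice above every Con mouse.

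To find out whether chronic exercise altered these genes, the Exe group was compared with the Con group by limma on log2(FPKM + 1) across all 10241 genes. With Benjamini-Hochberg adjustment, 0 of the 7 members reached an adjusted p of 0.05, and the background over all genes tested was 0.0%. At an unadjusted p of 0.05, 2 members passed, Fdps and Lss, both higher in Exe mice. Over all genes tested, 4.27% passed in that direction, 1.94% in the other and 6.21% in either. Of the 636 genes that passed, 437 were higher in Exe mice, and with quantile normalization between mice 348 of 617 were. The log2 fold change was above 0 for 6 of the 7 members, and for 57.5% of all genes tested. Of these 6, Hmgcs1 (0.04) and Insig1 (0.01) turned below 0 with quantile normalization, to -0.0077 and -0.050. The median log2 fold change over the members was 0.18, and 0.016 over all genes tested. The members' median was 0.060 without Exe 5, 0.093 without Exe 1 and 0.11 without Con 5.

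Hmgcs1, the synthase that joins acetyl-CoA and acetoacetyl-CoA at the head of the pathway, ran in Con mice from 77.4 FPKM to 208.4 FPKM, with a median of 159.4 FPKM. In Exe mice it ran from 75.9 FPKM to 301.5 FPKM, with a median of 142.1 FPKM. The Exe range took in that of the Con mice and, through Exe 5 alone, reached beyond it at the upper end, and the lowest and highest of the 12 mice, Exe 6 and Exe 5, belonged to the same group. The Con and Exe means were 146.6 ± 47.2 and 158.5 ± 81.1 FPKM (SD, n = 6). On the log2 scale Exe differed from Con by 0.04, with a 95% interval from -0.63 to 0.70 (adjusted p = 0.994 from limma), and it turned to -0.0077 with quantile normalization. Without Exe 5 it was -0.18.

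Idi1, the isomerase of isopentenyl diphosphate, lay between 85.7 and 154.9 FPKM in Con mice, with a median of 119.9 FPKM. In Exe mice it lay between 95.7 and 216.9 FPKM, with a median of 118.6 FPKM. Exe 1 and Exe 5 were above every Con mouse, and the other 4 Exe mice were within the Con range. Its log2 fold change was 0.20 (95% interval from -0.24 to 0.64, adjusted p = 0.932 from limma), and without Exe 5 it was 0.06.

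Fdps makes farnesyl diphosphate, the last compound shared with other isoprenoid products. It ran from 174.3 FPKM to 315.4 FPKM in Con mice, with a median of 253.8 FPKM, and from 243.6 FPKM to 434.9 FPKM in Exe mice, with a median of 353.5 FPKM. The Exe mice 1, 2, 3 and 5 were above every Con mouse, and 3 Con mice were below every Exe mouse. The means were 256.4 ± 53.8 and 349.7 ± 73.2 FPKM (SD, n = 6), a ratio of 1.36. This gave a log2 fold change of 0.45 (standard error 0.16, 95% interval from 0.10 to 0.80), with an unadjusted p of 0.016 and an adjusted p of 0.793 from limma. The exact two-sided permutation test over all divisions of the mice gave p = 0.0368 (n = 6). Of the variance of its log2 values over the 12 mice, 37.1% lay between the groups, against 0.112% for Hmgcs1.

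Sqle, the epoxidase of squalene, ran from 32.6 to 59.97 FPKM in Con mice (median 53.4 FPKM) and from 30.5 to 75.5 FPKM in Exe mice (median 42.6 FPKM). Exe 1 and Exe 5 were again above every Con mouse, while 4 Exe mice were below the Con median. The means were nearly equal, at 49.4 ± 11.3 and 49.0 ± 18.5 FPKM (SD, n = 6). Its log2 fold change was -0.05 (95% interval from -0.53 to 0.42, adjusted p = 0.984 from limma), and its sign turned without Con 1, Exe 4 or Exe 6.

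Lss, lanosterol synthase, closes the squalene epoxide into the first sterol. It ran from 9.40 FPKM to 14.8 FPKM in Con mice, with a median of 14.1 FPKM, and from 11.5 FPKM to 23.2 FPKM in Exe mice, with a median of 16.6 FPKM. All Exe mice except Exe 4 were above every Con mouse. The means were 12.8 ± 2.45 and 17.7 ± 4.54 FPKM (SD, n = 6), a ratio of 1.39. This gave a log2 fold change of 0.43 (standard error 0.16, 95% interval from 0.07 to 0.78), with an unadjusted p of 0.0212 and an adjusted p of 0.793 from limma. The exact two-sided permutation test gave p = 0.0563 (n = 6). In the fits with 1 mouse left out, it ran from 0.34 (without Exe 1) to 0.53 (without Exe 4). Its unadjusted limma p was above 0.05, at most 0.0529, without Con 2, Con 5, Exe 1 or Exe 5.

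Cyp51, the demethylase of lanosterol, had the smallest ratio of highest to lowest level over the 12 mice, 2.04, and ran from 44.0 to 59.3 FPKM in Con mice (median 52.7 FPKM) and from 46.2 to 89.8 FPKM in Exe mice (median 53.3 FPKM). As for Idi1 and Sqle, Exe 1 and Exe 5 were the mice above the Con range. Its log2 fold change was 0.18 (95% interval from -0.13 to 0.49, adjusted p = 0.929 from limma), and 0.06 without Exe 5.

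Insig1, which restrains SREBP processing and is itself a target of SREBP, ran from 88.9 to 226.9 FPKM in Con mice (median 160.1 FPKM) and from 116.1 to 269.5 FPKM in Exe mice (median 150.9 FPKM). Exe 1 was the only Exe mouse above every Con mouse, and Exe 5, the highest mouse for Hmgcs1, Idi1, Sqle and Cyp51, held 154.1 FPKM of Insig1. The means were 161.7 ± 52.3 and 162.0 ± 55.0 FPKM (SD, n = 6). The difference was 0.01 on the log2 scale (95% interval from -0.49 to 0.51, adjusted p = 0.997 from limma), and -0.050 with quantile normalization.

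**Figure D2:**
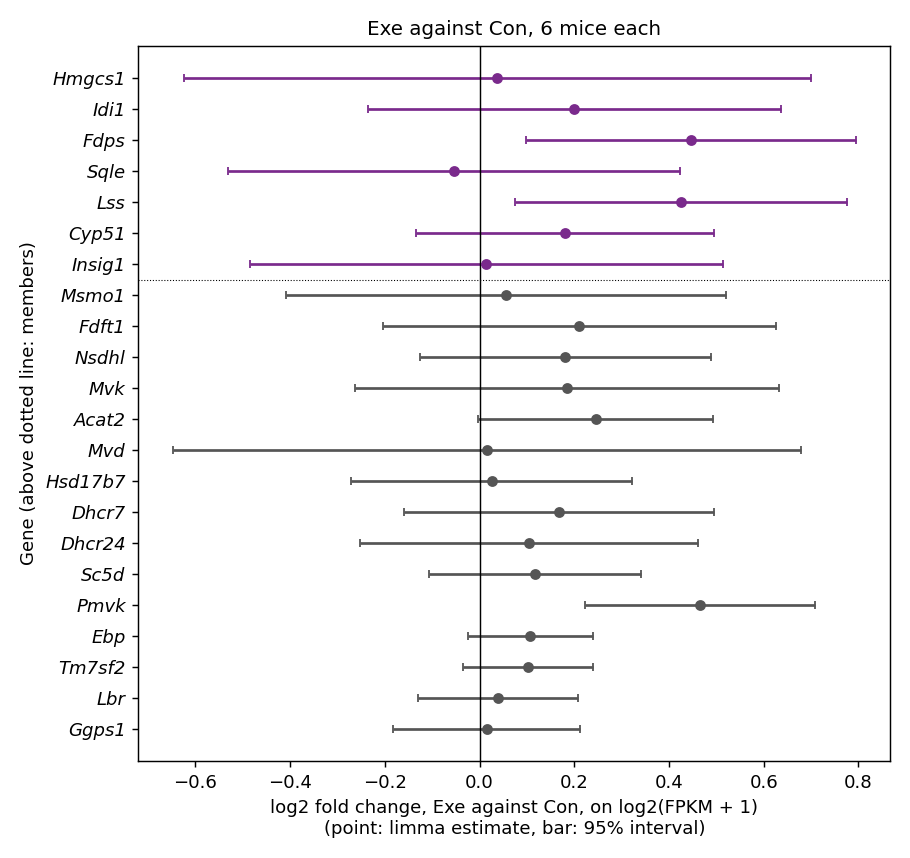
Points are log2 fold changes of Exe against Con mice on the log2(FPKM + 1) scale, with 95% intervals from limma, for the 7 members (purple, above the dotted line) and 15 other enzymes of the pathway (grey). The intervals of Fdps, Lss and Pmvk lie above 0, and no gene reached an adjusted p of 0.05.

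Since Fdps and Lss differed between groups at an unadjusted p and Sqle did not, the difference between genes was tested within each mouse. This test was chosen after the values were seen and covered the log2 ratio of all 21 pairs of members. The ratio of Sqle to Lss was 1.86 ± 0.14 on the log2 scale in Con mice and 1.38 ± 0.27 in Exe mice (SD, n = 6), and 5 of 6 Exe mice were below every Con mouse. The difference was -0.48 (exact two-sided permutation p = 0.00433, adjusted over 21 pairs 0.0909). The ratio of Fdps to Sqle was 2.36 ± 0.40 in Con and 2.86 ± 0.28 in Exe mice, a difference of 0.50 (exact permutation p = 0.0303, adjusted 0.273). Of the 21 pairs, 2 passed an unadjusted p of 0.05 and 0 an adjusted p of 0.05, so the members were not shown to differ from each other in their response.

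The larger part of the variation lay between mice of the same group. Hmgcs1 spanned a factor of 3.97 over the 12 mice, Insig1 3.03, and the other 5 members between 2.04 and 2.53. Exe 5 and Exe 1 had the highest mean level, with 7 of 7 members above their median over the 12 mice. Con 2, Con 5 and Exe 4 had 0 of 7 members above it. The members' mean, taken over centred log2 values, ran from -0.50 in Con 5 to 0.62 in Exe 5.

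**Figure D3:**
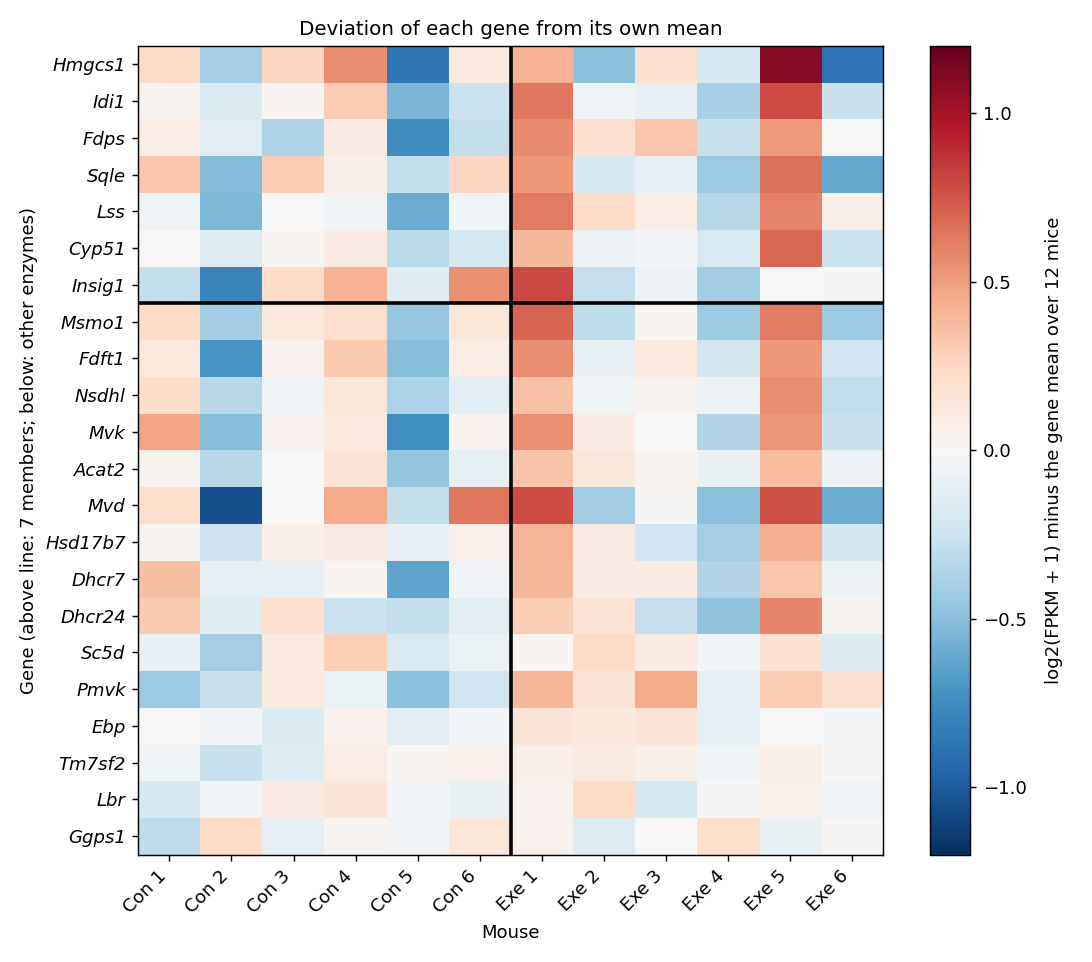
Colours give the log2(FPKM + 1) of each gene minus its own mean over the 12 mice, for the 7 members (above the line) and 15 other enzymes (below it, ordered by likeness to the members). Exe 1 and Exe 5 are red, and Con 2, Con 5 and Exe 4 blue, in the rows from Hmgcs1 to Dhcr7, apart from Insig1 in Exe 5, which is near its mean. Some of these cells are pale, such as Nsdhl and Acat2 in Exe 4, which are slightly below their means.

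Pairs of members were compared over the 12 mice, with p-values from 100000 permutations, adjusted over the 21 pairs. Pearson's r was above 0 for 21 of 21 pairs, with a median of 0.76, and 12 pairs reached an adjusted p of 0.05, all of them among the 6 enzymes. By Spearman's rho, 9 pairs did. An r of at least 0.7 was found in 11 of the 21 pairs, against 0.826% of the 71638 pairs of a member with another gene tested.

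Idi1 and Cyp51 were the closest pair, with r = 0.97 (p = 1e-05 by permutation, the smallest it can give, adjusted p = 0.00021) and rho = 0.97 (p = 2e-05, adjusted p = 0.00042). Among all 10240 other genes tested, each was the gene most like the other. Without the 2 mice farthest from the median of Idi1, r was 0.94 (p = 8e-05 by permutation). Within groups it was 0.98 in Con mice (exact permutation p = 0.00278, adjusted 0.0584) and 0.98 in Exe mice (exact permutation p = 0.00556, adjusted 0.0291).

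Hmgcs1 followed Sqle (r = 0.85, p = 0.00049, and rho = 0.85, p = 0.00089, by permutation) and Cyp51 (r = 0.85, p = 0.00018, and rho = 0.92, p = 0.00011, by permutation). Their adjusted p was 0.00263 and 0.00189 for r. Without the 2 mice farthest from the median of Hmgcs1, r was 0.83 and 0.82. Fdps followed Lss, with r = 0.84 (p = 0.00075, adjusted 0.00263, by permutation) and rho = 0.80 (p = 0.00289), and without the 2 mice farthest from the median of Fdps its r was 0.70 (adjusted p = 0.0555). Fdps and Sqle, which act on either side of squalene synthase, had an r of 0.46 (p = 0.133 by permutation) and a rho of 0.43 (p = 0.162). Their r was 0.31 in Con mice, 0.87 in Exe mice and 0.29 without the 2 farthest mice.

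Insig1 was the member least like the rest. Its r with the 6 enzymes lay between 0.26 (Fdps) and 0.61 (Sqle), and 0 of these 6 pairs reached an adjusted p of 0.05. With quantile normalization 1 of the 6 did, as did Insig1 with Sqle (r = 0.81) without the 2 farthest mice. Against the mean of the other 6 members, r was 0.51 for Insig1 and between 0.70 and 0.92 for the enzymes, without a test.

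Fewer pairs passed the test when mice were left out. Without Exe 1 and Exe 5, a setting added after seeing the data, r was above 0 for 20 of 21 pairs with a median of 0.55, 5 pairs had an r of at least 0.7, and 1 pair, Idi1 and Cyp51, kept an adjusted p of 0.05. Without the 2 mice farthest from the median of the former gene of each pair, 5 pairs reached it, 4 among the enzymes and Sqle with Insig1. Within the 6 Con mice 0 pairs reached it, with a median r of 0.72, 11 pairs at an r of at least 0.7 and 5 pairs at an unadjusted p of 0.05. Within the 6 Exe mice 7 pairs did, with a median r of 0.85. By Spearman's rho, 0 pairs reached an adjusted p of 0.05 within the Con mice and 0 within the Exe mice. The labels name no batch, so no value within batches can be given.

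**Figure D4:**
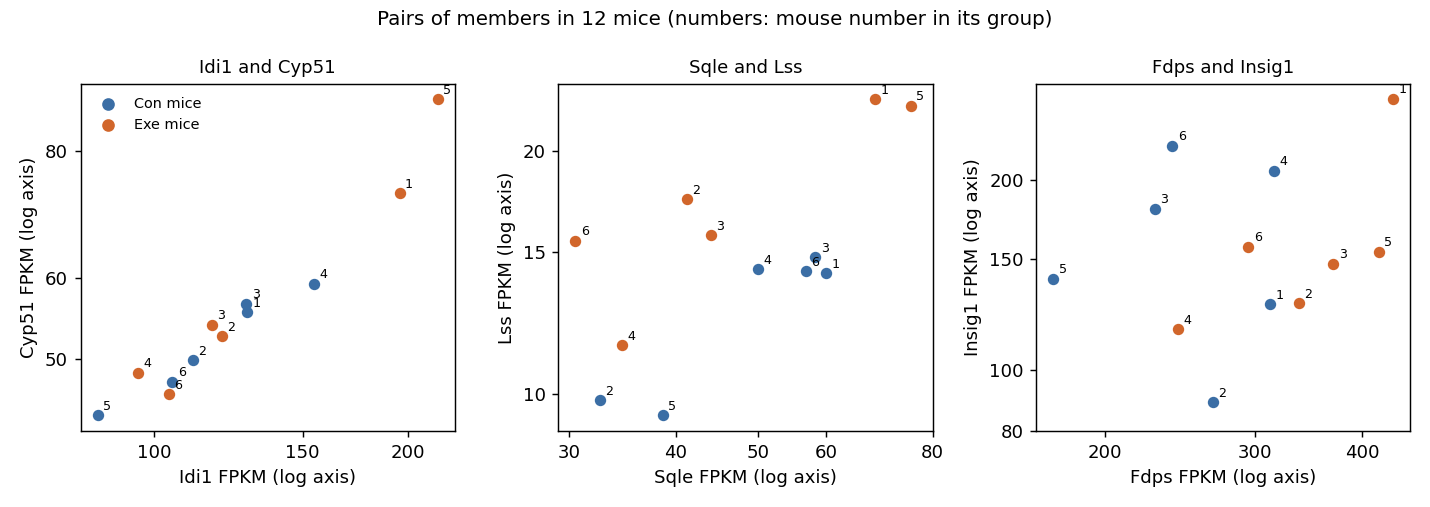
Each point is 1 mouse, with the FPKM of a pair of members on log axes, and its number is that of the mouse in its group. Idi1 and Cyp51 lie along a line in both groups, and most Exe mice hold more Lss for their Sqle than Con mice. Fdps and Insig1 had an r of 0.26 over the 12 mice, of -0.015 in Con mice and of 0.70 in Exe mice.

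Exe 5 also stood apart in its markers of other cells. The 6 acinar markers of the pancreas summed to 19.2 FPKM there, against 0.60 to 2.93 FPKM in Con mice, and 5 of the 6 were highest in Exe 5. Its 5 red blood cell markers summed to 1290 FPKM, against 235.1 to 902.9 FPKM in Con mice. Exe 3 also lay above that range, at 911.8 FPKM. The cholangiocyte, T cell and B and plasma cell sums were also highest in Exe 5, at 74.6, 2.02 and 6.44 FPKM. Their Con maxima were 72.9, 1.91 and 4.51 FPKM, and Exe 1 and Exe 6 also passed that of B and plasma cells. The Kupffer cell, stellate cell and sinusoidal endothelium sums of Exe 5 lay within the Con range. Exe 1, the other mouse with high members, held 0.99 FPKM of acinar and 653.0 FPKM of red blood cell markers, within the Con range. Exe 4 and Exe 3 were also above the Con range in acinar markers, at 5.14 and 3.29 FPKM, and Exe 4 had 0 members above their median. Over the 12 mice, the r of the acinar and red blood cell sums with the members' mean was 0.38 and 0.41. Their rho was 0.067 and 0.37, and their part in the members' levels was not tested. The 6 hepatocyte markers summed to 54298 to 69402 FPKM in the Con group and to 62269 to 77860 FPKM in the Exe group, with an r of 0.10. In whole liver, a smaller number of cells of a type and less RNA per cell cannot be told apart.

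The genes most like the members' mean over the 12 mice were then sought among the other 10234 genes tested. The 10 with the highest r were Msmo1, Fdft1, Mmab, Srebf2, Nsdhl, Mvk, Acat2, Mvd, Hsd17b7 and Vps45, with r from 0.96 down to 0.85 and rho from 0.94 down to 0.76. Of these 10, 7 are enzymes of the same pathway. The order depended on the mice: the 10 closest genes held 3 of these enzymes without Exe 1 and Exe 5, 1 within Con mice alone and 5 within Exe mice alone, and Srebf2 ranked 5, 70 and 12 there. Msmo1 (methylsterol oxidase, r = 0.96) and Fdft1 (squalene synthase, r = 0.95) led the order. Srebf2, the gene of the transcription factor itself, was the 4th, with Con and Exe means of 14.9 ± 1.85 and 16.2 ± 2.22 FPKM (SD, n = 6). Of all 10234 genes, 0.596% had an r of at least 0.7, and the median r was -0.015. These likenesses are a description over 12 mice and carry no test.

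Mmab, which acts on vitamin B12 and not on sterols, lies head to head with Mvk, mevalonate kinase, on chromosome 5. The 190 bases between them in RefSeq GRCm38.p6, chr5:114444074-114444263, are shown because both genes are among these 10. They read as follows on the strand of Mvk, with CCAAT boxes of either strand in capitals.
Mvk and Mmab: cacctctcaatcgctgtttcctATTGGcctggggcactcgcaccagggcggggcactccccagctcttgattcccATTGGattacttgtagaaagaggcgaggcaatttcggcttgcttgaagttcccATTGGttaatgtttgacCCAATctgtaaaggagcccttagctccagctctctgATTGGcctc
The Con and Exe means of Mvk were 22.2 ± 6.76 and 25.2 ± 6.98 FPKM, and those of Mmab 12.9 ± 1.71 and 14.48 ± 2.24 FPKM (SD, n = 6). Their log2 fold changes were 0.18 and 0.15 (adjusted p = 0.937 and 0.899 from limma).

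The other enzymes of the pathway were taken as a list of 15 genes, all of them tested. Their log2 fold change was above 0 in 15 of 15, with a median of 0.11, beside 57.5% and 0.016 over all genes tested. The median was 0.048 with quantile normalization and 0.059 without Con 5. These genes varied together between mice, so that their directions are not independent of each other. Of the 15, 0 reached an adjusted p of 0.05 and 1 passed an unadjusted p of 0.05, Pmvk, higher in Exe mice. Pmvk, phosphomevalonate kinase, ran from 27.1 to 41.9 FPKM in the Con group and from 35.4 to 52.9 FPKM in the Exe group, with means of 33.0 ± 5.46 and 45.8 ± 6.34 FPKM (SD, n = 6). The Exe mice other than Exe 4 were above every Con mouse. Its log2 fold change was 0.46 (standard error 0.11), with an unadjusted p of 0.0011 and an adjusted p of 0.58 from limma, and the exact two-sided permutation p was 0.00649 (n = 6).

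Of these 15 enzymes, 14 had a positive r with the members' mean, with a median of 0.82, and 8 had an r of at least 0.7. Ggps1, which leads to geranylgeranyl diphosphate and not to sterols, was the exception at -0.29. Without Exe 1 and Exe 5, 8 of the 15 again had an r of at least 0.7, beside 1.44% of all genes, and Fdft1 was the closest of all at 0.94. Within Con mice alone 9 did, beside 7.35% of all genes, and within Exe mice alone 9 did, beside 3.74%.

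Of the 11 genes of sterol sensing and SREBP processing, 8 had a log2 fold change above 0 and 3 below, with a median of 0.037 (0.0028 without Con 1, 0.0071 without Exe 2, 0.0061 with quantile normalization) and 0 at an unadjusted p of 0.05. Srebf1, the gene of SREBP1, which serves fatty acid synthesis, stood 0.20 higher in Exe mice on the log2 scale (limma adjusted p = 0.937), and 0.038 higher without Exe 2, with an r with the members of 0.30. Srebf2 stood 0.12 higher (limma adjusted p = 0.929), with an r of 0.93, the only gene of this list with an r of at least 0.7. Its r was 0.89 without Exe 1 and Exe 5.

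Of 15 genes of sterol uptake, esterification and export, 14 were tested, 5 with a log2 fold change above 0 and 9 below, with a median of -0.033 (0.0047 without Con 3). At an unadjusted p of 0.05, 0 passed. Lipa, the lysosomal lipase of cholesteryl esters, had the value 0.10 (limma adjusted p = 0.929). Nr1h2, which encodes the oxysterol receptor LXR beta, had -0.12 (limma adjusted p = 0.8997). No gene of this list had an r of at least 0.7 with the members, and the highest was 0.38.

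**Figure D5:**
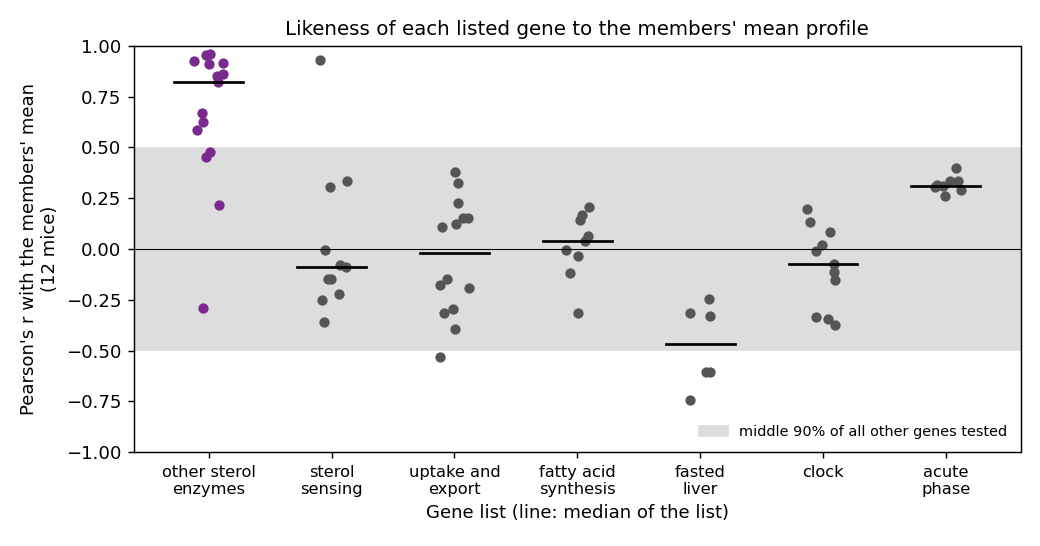
Points are Pearson's r of each listed gene tested with the members' mean over 12 mice, lines are list medians, and the grey band holds the middle 90% of all other genes tested. The median of the other sterol enzymes (0.82) and Srebf2 (0.93) lie above the band. Some of these enzymes, such as Ebp (0.48) and Ggps1 (-0.29), lie within it. The 6 genes of the fasted liver lie below 0, some of them, such as Pck1 (-0.33), within the band.

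Lists of other liver programmes were set beside the members in the same way. The 9 tested genes of fatty acid synthesis had a median r of 0.042 with the members, the 11 of the clock one of -0.076, and the 8 of the acute phase one of 0.31. All 6 tested genes of the fasted liver had an r below 0 over the 12 mice, where the median over all other genes tested was -0.015. It was below 0 for 5 of 6 without Exe 1 and Exe 5, within Con mice alone and within Exe mice alone. Over the 12 mice the median of these 6 genes was -0.47. The lowest was Angptl4 (r = -0.74), a gene induced by fasting that was named after its value was seen. Angptl4 had an r of -0.77 without Exe 1 and Exe 5, of -0.73 within Con mice and of -0.85 within Exe mice. These too are descriptions, and the part of feeding or time of day in the members' levels was not tested.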

How the data were processed

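Liver RNA of 12 mice (6 Con, 6 Exe, grouped by the sample titles) was sequenced by the authors in paired ends on the DNBseq platform. Low-quality reads were removed and the rest aligned with HISAT to GRCm39. The submitters' processing notes also name Bowtie2 and mm10, with no role. The deposited values are FPKM to 2 decimals, and how the authors computed or scaled them is not given in the sources used here. The authors excluded outlying mice by principal component analysis. FPKM are not counts, so precision rests on the spread between mice, and totals per mouse ran from 735200 to 820107 FPKM. The paper reports differentially expressed genes from DESeq, a test of counts, which was not run here.

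Values were analysed as log2(FPKM + 1) in R 4.3.3 with limma 3.58.1 (eBayes with a trend, Benjamini-Hochberg adjustment over 10241 genes) with permutations and correlations in Python 3.11.15 (scipy 1.17.1, numpy 2.4.6, pandas 2.3.3). The pseudocount of 1 understates changes of low genes. The scripts were tested on simulated data. The smallest p of the exact permutation test of 6 against 6 is 0.00216. No pairing of the mice by replicate number was evident from the values. Motifs were sought on both strands of RefSeq promoters, whose build (GRCm38.p6) differs from that of the alignment, and no expression value depends on it.

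The members, lists, markers and tests were chosen with earlier results of these data known. From each list, genes at an unadjusted p of 0.05 were named (at most 4), or else the 2 with the largest change. The 10 non-member genes most like the members' mean were also named. Alternatives were quantile normalization, a pseudocount of 0.1, no filter, a stricter filter, robust moderation, the replicate block, each mouse left out, and correlations within groups or without outlying mice. One result for a gene of the fatty acid synthesis list is not reported here. Protein and metabolite data were not analysed here.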

Additional observations from a re-analysis of the deposited data

Results flagged for a closer look

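Insig1 in Exe 1, at 269.5 FPKM, lay far from the other Exe mice, whose highest was 156.9 FPKM. The gap was 0.734 of the range of the group, above Dixon's 95% critical value for 6 mice. The 7 members in both groups made 14 such sets, of which this 1 was flagged, and chance flags about 1 in 20. All 7 members were above their median in this mouse.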

How the results depend on the processing

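With Exe against Con mice, 0 genes reached an adjusted p of 0.05 from limma on log2(FPKM + 1), except that 1 did without the filter on low values. At an unadjusted p of 0.05 the count of 636 ran from 418 (without Exe 2) to 910 (without Exe 5). With the replicate number as a block, 567 genes passed the unadjusted p and 0 the adjusted p. No pairing by these numbers was evident. The correlation of same-numbered deviations was over 0.1 for 1 of 6 pairs (range -0.48 to 0.16). Only 1 of 6 Con mice was most like the Exe mouse of its own number. Such values cannot show that the mice were unpaired. Fdps kept an unadjusted p under 0.05 in 18 of the 18 other fits and Lss in 14, and neither reached an adjusted p of 0.05 in any (lowest 0.546 and 0.552). The sign of the log2 fold change turned for 3 members. With quantile normalization it was -0.0077 for Hmgcs1 and -0.050 for Insig1, and with each mouse left out it ran from -0.18 to 0.22 for Hmgcs1, from -0.19 to 0.063 for Sqle and from -0.14 to 0.13 for Insig1. Of the 21 member pairs, 12 reached an adjusted p of 0.05 by Pearson's r. In Con mice alone 0 did, in Exe mice alone 7, without the 2 farthest mice 5 and without Exe 1 and Exe 5 1, where fewer mice enter. By Spearman's rho, 0 pairs did in Exe mice alone. Fdps and Insig1 had an r of -0.015, below 0, in Con mice alone, of -0.071 without the 2 farthest mice and of -0.047 without Exe 1 and Exe 5. Their r was 0.70 in Exe mice alone. The median of the sterol uptake list turned to 0.0047 without Con 3, and that of the clock list (-0.0013) to 0.0014, 0.023 and 0.019 without Con 5, Exe 3 and Exe 5. Over all results and alternatives, 16 fold changes or correlations changed sign besides these medians. A threshold was lost, or a count fell by over 1.5 times, in 47 cases, and a threshold or a call was gained in 4. The cause of these changes was not tested.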

Other observations

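Other liver programmes were measured in the same mice. Of 9 tested genes of fatty acid synthesis, 7 had a log2 fold change above 0 in Exe mice, beside 57.5% of all genes tested. Their median was 0.32, and 0 reached an adjusted p of 0.05 from limma. At an unadjusted p of 0.05, 3 were higher, beside 4.27% of all genes tested. Acly, which makes cytosolic acetyl-CoA, had Con and Exe means of 55.1 ± 4.70 and 77.0 ± 21.4 FPKM (SD, n = 6). It was 0.44 higher on the log2 scale, and the exact two-sided permutation test gave p = 0.00216, the smallest that 6 against 6 mice can give. Elovl6 (0.46, exact permutation p = 0.0455) and Acaca (0.32, exact permutation p = 0.0714) also passed an unadjusted limma p of 0.05. They kept it in 10 and 8 of the 18 other fits, against 18 for Acly. Exe 2 held the highest level of these 3 genes, and without it Acly had 0.31, Elovl6 0.27 and Acaca 0.22. In this list the r with the members' mean reached at most 0.21.

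Of the 9 genes of the fasted liver in the data, Ppargc1a, Pdk4 and Fgf21 did not pass the filter on low values. Their ratios of the Exe to the Con mean were 1.06, 1.14 and 0.86. All 6 tested genes of the fasted liver had a log2 fold change below 0, as did 4349 of the 10241 genes tested, with a median of -0.17 and 0 at an unadjusted p of 0.05. The median was -0.030 without Exe 5 and -0.31 without Con 6. Pck1, of gluconeogenesis, had -0.44 and Igfbp1 -0.23 (-0.063 without Exe 4). The 8 acute-phase genes were also below 0 in 8 of 8, with a median of -0.69, as in Orm2 (-1.29, standard error 0.95) and Saa2 (-1.13, standard error 1.54), and 0 passed an unadjusted p of 0.05. Their median was -0.30 without Con 1 and -1.30 without Exe 5, and Saa2 had -0.44 and -2.02 there. Of 11 clock genes tested, 5 were above 0 and 6 below, with Dbp at -0.47 and Ciart at -1.05, and 0 passed. None of these genes reached an adjusted p of 0.05 from limma.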
